A study of Mus musculus with 12 samples.

Results

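The cytosolic ribosomal protein genes were read in mammary tumours of 4T1 cells, a mouse mammary carcinoma line that was edited with CRISPR-Cas9 to lose TREX1, a DNA-degrading enzyme, or carried a control. Members are the table's symbols of the form Rpl or Rps with a number, Rplp0 to Rplp2 and Rpsa, without pseudogene names, that reached 10 TPM in at least 3 of 12 libraries. TPM is a level corrected for transcript length, so levels of different genes can be compared. Of 23667 symbols, 88 had such a name and 81 reached the level, 48 of the large subunit and 33 of the small subunit. Rps4l, which reached 10 TPM in 3 libraries, lies just inside the threshold, and Rps2, which reached it in 1, just outside. The 4 groups of 3 libraries were TREX1 KO-ICB, TREX1 KO-IgG, CTRL-ICB and CTRL-IgG. ICB stands for 200 ug of anti-PD1 with 100 ug of anti-CTLA4, given 3 times weekly for 1 week, and IgG for matched isotype antibodies. The labels do not say whether the edited cells were 1 clone, nor the strain or age of the mice.

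Near-identical pairs of libraries were found in both KO groups. For genes above 300 TPM, log2 ratios between the second and the third KO-IgG library had a robust SD of 0.0619, and those between the first and the second KO-ICB library one of 0.0382. All other pairs of one group had 0.219 to 0.686. Each pair was averaged and counted as 1 sample, which left 4 KO and 6 CTRL samples. Trex1 itself had 56.0 to 72.2 TPM in the KO libraries and 32.8 to 46.2 TPM in the CTRL libraries, so its transcript was not lower under the KO label, and all directions below follow the labels. KO-IgG replicate 1 had 0.661 TPM of the epithelial gene Epcam, against 87.1 to 1239 TPM in the other 11 libraries. CTRL-IgG replicate 3 and CTRL-ICB replicate 3 held 3740.1 and 5968 TPM of 9 skin keratinocyte markers, against 3.94 to 107 TPM elsewhere. The tumours hold host cells as well as 4T1 cells, and in such bulk RNA fewer cells of a type and less RNA per cell cannot be told apart.

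Ribosomal proteins coat the ribosomal RNAs of the small subunit, which decodes the messenger RNA, and of the large subunit, which joins the amino acids. Most are needed in equal numbers, and their transcripts are among the most abundant of dividing cells. In mammals these transcripts begin with a 5′ terminal oligopyrimidine tract, 5′ TOP for short, a C followed by further pyrimidines, through which mTOR and LARP1 set their translation. Because the genes are short and highly transcribed, mammalian genomes also carry many reverse-transcribed copies of them, most of which are pseudogenes.

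The start sites of 8 members are shown because the tract is the sequence feature the family is known for, and because these members return below. Each window has 15 bases before and 15 bases from the RefSeq start in GRCm38.p6, on the gene's strand. Capitals mark the longest pyrimidine run counted from a C within 5 bases of the start, with at least 4 more pyrimidines. Rpl34 has 2 RefSeq starts, of which a start with such a run was chosen. All letters shown before its capitals are pyrimidines too, so its tract begins further upstream than marked.
Rps15a, chr7:118116133-118116162, minus strand: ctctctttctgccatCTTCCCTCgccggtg
Rps27, chr3:90213634-90213663, minus strand: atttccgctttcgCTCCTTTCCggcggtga
Rpl34, chr3:130730323-130730352, minus strand: ccttccttttCCTCTTCCggggacggtgct
Rps6, chr4:86857353-86857382, minus strand: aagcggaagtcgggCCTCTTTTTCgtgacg
Rplp2, chr7:141447636-141447665, plus strand: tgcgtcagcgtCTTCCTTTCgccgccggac
Rpl38, chr11:114668565-114668594, plus strand: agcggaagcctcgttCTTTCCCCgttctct
Rps3a1, chr3:86142654-86142683, minus strand: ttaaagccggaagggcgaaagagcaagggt
Rpl10, chrX:74270801-74270830, plus strand: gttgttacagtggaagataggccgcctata
The letters were sought on the gene's strand alone. They stood at the start of 28 of the 59 members that matched a RefSeq promoter by symbol (47.5%), against 5718 of all 27025 genes with a promoter (21.2%). The large subunit had 17 of 36 and the small subunit 11 of 23. With a window of 10 bases the members had 35 of 59 (59.3%) and all genes 9297 (34.4%). A window without a match, as in Rps3a1 and Rpl10, says only that these letters are not beside that annotated start.

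The members spanned a wide range of levels. Over the 10 samples their median level was 1896 TPM, against 16.1 TPM for all 13886 genes tested, and 60 members averaged above 1000 TPM. The small subunit members had a median of 2116 TPM and the large subunit members one of 1820.5 TPM. The highest small subunit members were Rps27, a zinc-finger protein, at 9972 ± 2359 TPM, Rps15 at 5603 ± 1233 TPM and Rps21 at 5094 ± 918 TPM (SD, n = 10). The highest large subunit members were Rplp1, an acidic protein of the stalk that recruits elongation factors, at 9845 ± 1813 TPM, Rpl41, a very short peptide, at 6628 ± 1546 TPM, and Rpl36 at 6018 ± 1440.1 TPM. Rps27 and Rplp1, and Rps15 and Rps21, differed by less than their SDs. The members' median coefficient of variation between samples was 18.03%, against 29.5% for all tested genes. The members are also at far higher levels, and genes of similar level were not set beside them. The coefficient ran from 6.59% for Rpl4, named after its values were seen, to 45.3% for Rpl22l1. At the low end were Rps4l at 8.40 ± 3.80 TPM, Rpl29 at 15.4 ± 3.93 TPM, Rps18 at 33.7 ± 7.58 TPM, Rpl5 at 62.9 ± 5.52 TPM, Rpl7l1 at 71.4 ± 8.40 TPM, Rplp0 at 77.5 ± 12.9 TPM and Rps7 at 91.7 ± 22.0 TPM. Rpl5, Rplp0, Rps7 and Rps18 are core proteins of the ribosome, whereas Rps4l and Rpl7l1 are paralogs of Rps4x and Rpl7.

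**Figure D1:**
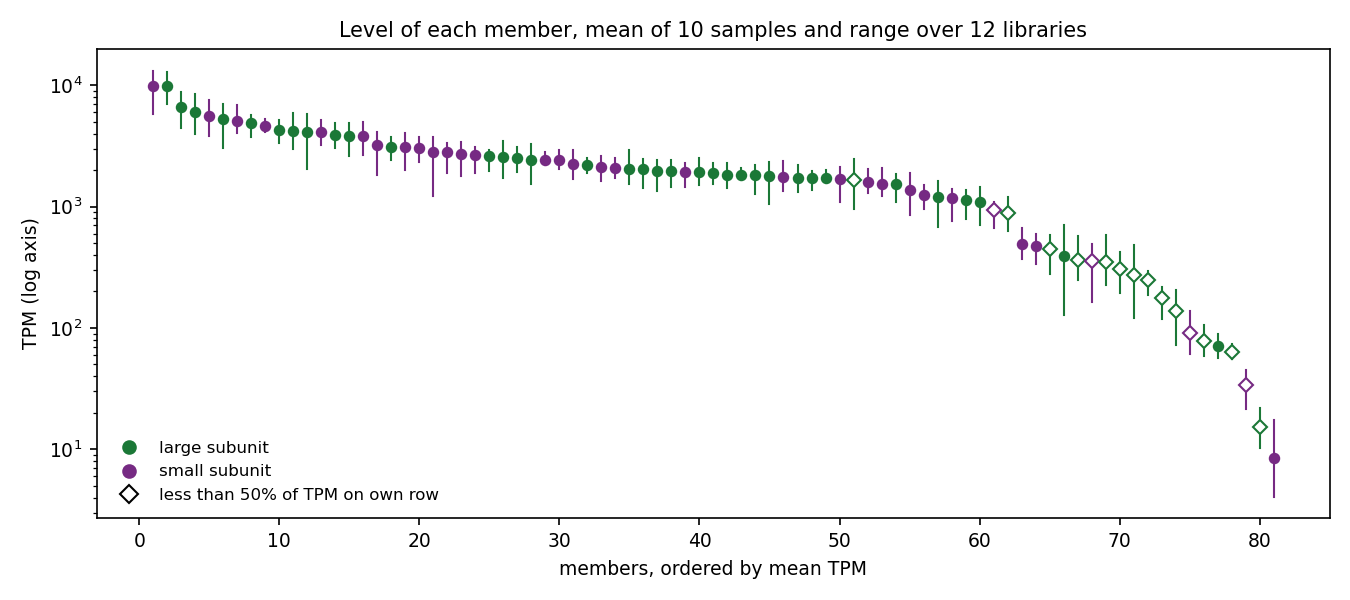
Mean TPM of each of the 81 members over 10 samples (points, log axis), with the lowest and highest of 12 libraries (lines), ordered by mean. Most members lie between about 1000 TPM and the level of Rps27 at 9972 TPM, and 16 of the 21 members below 1000 TPM have less than 50% of their TPM on their own row (open diamonds).

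Low rows were mostly those with near-identical copies elsewhere in the table. A copy was another gene of the table, most often a processed pseudogene, with at least 95% identity over at least 80% of a member's coding sequence, or one named as a pseudogene of the member. The 88 symbols themselves were not counted as copies of each other. The table listed 514 copies of 73 of the 88 symbols, and 43 of these copies averaged at least 10 TPM. Of the 81 members, 17 had less than 50% of the TPM of member and copies on their own row, and 16 of these averaged below 1000 TPM. The other 5 members below 1000 TPM were the paralogs Rps4l, Rpl7l1, Rpl22l1 and Rps27l, and Rps3a2, whose coding sequence matches that of Rps3a1 at 99.5%. Rps3a2 was named after its values were seen.

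The own row of Rps7 held 3.35% of 2736 TPM, that of Rpl5 2.77% of 2267 TPM, that of Rpl29 1.11% of 1379 TPM and that of Rps18 0.995% of 3386 TPM. Rps12, whose copy Rps12-ps3 on chromosome 19 averaged 6878 TPM, held 4.92% of 7238 TPM. With copies added to every member, only Rps27 and Rplp1 were higher than Rps12 among members that have copies, and Rpl41, which has none, was at 6628 TPM. The copies of Rps18 and Rps7 with the most TPM, Rps18-ps6 and Rps7-ps3, were matched by name alone. Rps2, a small subunit protein near the messenger's entry, was at 3.49 to 11.1 TPM, reached 10 TPM in 1 library and is therefore no member, while its copies summed to 3301 TPM. The other 6 symbols below the minimum stayed at or under 3.04 TPM in all 12 libraries. Rplp0, the stalk base, summed to 227 TPM with its copies.

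The sequences show how close these pairs are. The coding bases 1 to 60 of Rpl5 (chr5:107900502-107909005) are the same letters as those of its copy Gm15500 (chr7:114705217-114706235), and the pair matches over all 891 coding bases. Rpl26 (chr11:68901583-68906989) and its copy Gm15772 (chr5:3236431-3236868) differ at 2 of 435 coding bases, and coding bases 147 to 206 of both are given with the differing base in capitals. Coordinates are of GRCm38 and sequences of GENCODE M21 transcripts.
Rpl5, bases 1 to 60: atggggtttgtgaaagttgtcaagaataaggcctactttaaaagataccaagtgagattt
Rpl26, bases 147 to 206: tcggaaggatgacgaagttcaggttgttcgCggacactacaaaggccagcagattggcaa
Gm15772, bases 147 to 206: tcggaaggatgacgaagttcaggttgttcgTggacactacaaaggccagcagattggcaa
Rpl26 averaged 138 TPM on its own row and 3452 TPM on its copies. The 5 copies of Rpl35a above 10 TPM were listed at the same TPM as each other in every library, at a mean of 306 TPM each. How far reads of such a gene and its copies were split by the authors' counting was not tested, so values of these rows are uncertain as levels of the gene.

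**Figure D2:**
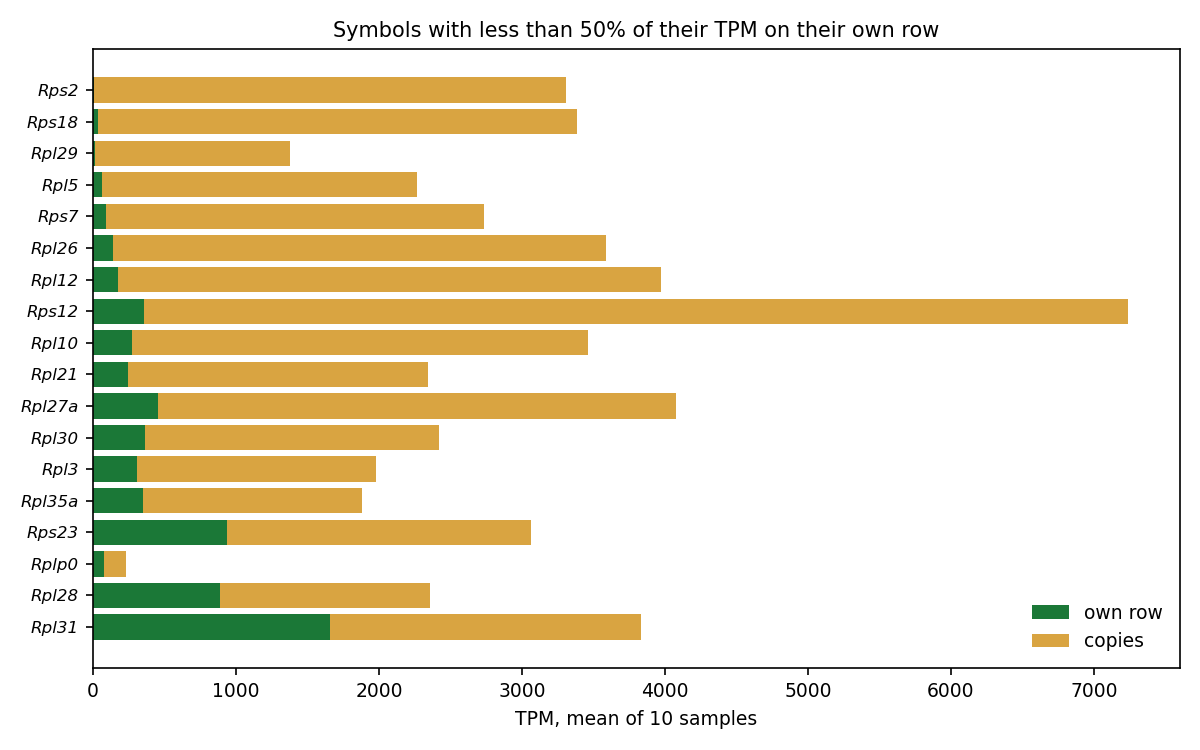
TPM of the own row (green) and of the summed copies (yellow), mean of 10 samples, for the 18 symbols with at least 10 TPM in all and less than 50% of it on their own row. Rps2 and Rps18 have nearly all of their TPM on copies, and Rps12 reaches 7238 TPM with its copies.

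As a whole, the members took up a similar share of the transcriptome in every group. Their summed share of total TPM was 17.9 ± 2.72% in KO tumours (SD, n = 4) and 18.5 ± 2.32% in CTRL tumours (n = 6). It was 18.9 ± 1.83% under ICB and 17.7 ± 2.87% under IgG (n = 5 each). By library, the share was 17.3, 17.4 and 20.98% in KO-ICB, 14.5, 18.5 and 18.9% in KO-IgG, 19.9, 19.7 and 16.6% in CTRL-ICB and 15.3, 18.2 and 21.6% in CTRL-IgG. The ranges of the groups overlapped, and the libraries of CTRL-IgG alone spanned nearly the whole range. KO minus CTRL was -0.681 points, but 0.370 points without KO-IgG replicate 1, 0.230 without KO-ICB replicates 1 and 2 and 0.128 without CTRL-IgG replicate 3. With copies added the share was 22.9 ± 3.26% in KO tumours and 23.9 ± 2.36% in CTRL tumours.

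Libraries high or low in this share were so for most members at once. In CTRL-IgG replicate 3, 73 of the 81 members were above their own mean over the samples, and in KO-IgG replicate 1 only 14 were. CTRL-IgG replicate 1 and CTRL-ICB replicate 3, with 23 and 22 members above their mean, were also low. KO-IgG replicate 1 is the library nearly without Epcam, and its 9 macrophage markers summed to 4282 TPM, against 887 to 2705 TPM in the other libraries. Its 11 epithelial markers together still summed to 1485 TPM, against 2136 to 6193 TPM in the other libraries. The library with 2136 TPM of them, CTRL-IgG replicate 2, had a share of 18.2%. CTRL-IgG replicate 1, the next lowest in share, had 1113 TPM of Epcam and 1340 TPM of macrophage markers. Skin markers were high both in the library with the highest share and in CTRL-ICB replicate 3. The part of these cell types in the share was not tested. The log2 ratio of the TPM of members with coding sequences below the median of 456 bases to that of the longer ones was 0.26 in CTRL-IgG replicate 1 and 0.41 to 0.67 in the other libraries.

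KO and CTRL tumours overlapped less in the balance of the subunits. The log2 ratio of mean TPM per large subunit member to mean TPM per small subunit member was -0.09 ± 0.07 in KO tumours (SD, n = 4) and -0.22 ± 0.04 in CTRL tumours (n = 6). By library it was -0.06, -0.06 and -0.07 in KO-ICB, -0.19, -0.03 and -0.05 in KO-IgG, -0.19, -0.29 and -0.19 in CTRL-ICB and -0.24, -0.23 and -0.17 in CTRL-IgG. The groups overlapped only through KO-IgG replicate 1, which lay among the CTRL samples. With copies added, the ratio was 0.00 ± 0.04 in KO tumours and -0.09 ± 0.03 in CTRL tumours, with the same library overlapping. Under ICB it was -0.16 ± 0.10 and under IgG -0.17 ± 0.08. This ratio was described and not tested. Rps27, the most abundant small subunit member, weighs most in the small subunit mean. It averaged 7995 TPM in KO and 11290 TPM in CTRL tumours, and a ratio without it is not given.

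**Figure D3:**
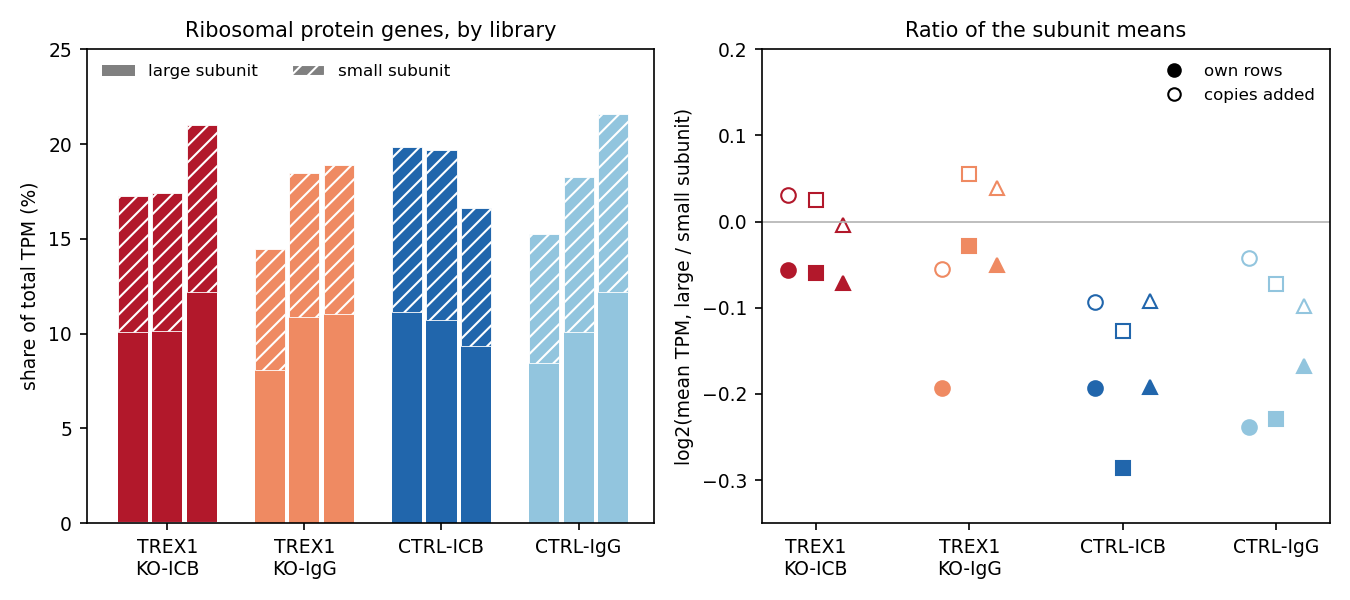
Left, share of total TPM held by large (plain) and small (hatched) subunit members in each library of the 4 groups, with bars in the order of the replicate numbers. Right, log2 ratio of mean TPM per large and per small subunit member, from own rows (filled) and with copies added (open), where circles, squares and triangles are replicates 1, 2 and 3. Shares overlap between the groups, and KO libraries other than KO-IgG replicate 1 have the highest ratios from own rows.

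The main question of the design is what loss of TREX1 and checkpoint antibodies change in these tumours. No member passed an adjusted p of 0.05 in KO against CTRL tumours, averaged over both treatments, where 0.108% of all genes did (limma, Benjamini-Hochberg over 13886 genes, smallest adjusted p of a member 0.226). The fold changes were small: the median log2 fold change of the members was -0.05, against -0.03 for all genes tested, and 33 members were positive and 48 negative. The members' median was positive without KO-IgG replicate 1 (0.04) and without CTRL-IgG replicate 3 (0.01), so its sign rests on single libraries. Of the large subunit members 23 of 48 were positive, with a median of -0.04, and of the small subunit members 10 of 33, with a median of -0.09. At an unadjusted p under 0.05, 8 members were lower in KO tumours, where 5.23% of all genes were, and 0 were higher, where 6.31% were.

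3 members lay entirely below CTRL in KO tumours, where 1.52% of all genes did, and 0 lay entirely above, where 2.05% did. The 2 with the most negative fold changes are described. Rps15a, a small subunit protein, had 959, 974 and 1079 TPM in KO-ICB, 1038, 1021 and 1033 TPM in KO-IgG, 1511, 1358 and 1230.3 TPM in CTRL-ICB and 1293, 1489 and 1427 TPM in CTRL-IgG. All KO libraries were thus under all CTRL libraries, with means of 1028 ± 46.6 TPM in KO and 1385 ± 111 TPM in CTRL tumours. Its log2 fold change was -0.43 ± 0.12 (SE, limma adjusted p = 0.226), and over the 12 libraries as labelled its adjusted p was 0.0270 in limma, where 3.23% of all genes were called. Copies of Rps15a held only 2.29 TPM, so its row is little affected by them.

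Rps3a1, which sits near the exit of the messenger on the small subunit, had 1225, 1219 and 1219.7 TPM in KO-ICB, 1263, 1331 and 1312 TPM in KO-IgG, 1743, 2103 and 1394 TPM in CTRL-ICB and 1639.5, 1969 and 1576 TPM in CTRL-IgG. The KO libraries were close together and the CTRL libraries spread widely above them, with a log2 fold change of -0.45 ± 0.15 (SE, limma adjusted p = 0.280). Its near-identical row Rps3a2 averaged 424 ± 31.8 TPM in KO tumours and 542 ± 118 TPM in CTRL tumours, which overlapped.

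The most negative fold change was that of Rps27, with 7347, 7494 and 10588 TPM in KO-ICB, 5856, 7897 and 8334 TPM in KO-IgG, 12013, 13246 and 9359 TPM in CTRL-ICB and 9383, 11912 and 11829 TPM in CTRL-IgG. KO-ICB replicate 3 lay among the CTRL libraries and the other KO libraries below them, with a log2 fold change of -0.52 ± 0.18 (SE, limma adjusted p = 0.307). Its paralog Rps27l, which p53 induces in human cells, had the most positive one. It averaged 533 ± 51.5 TPM in KO tumours and 442 ± 97.5 TPM in CTRL tumours, a log2 fold change of 0.29 ± 0.18 (limma adjusted p = 0.578). The groups overlapped, since CTRL-IgG replicate 3 at 599 TPM was the highest library. Rpl34, of the large subunit, averaged 3367 ± 460.5 TPM in KO and 4725 ± 837 TPM in CTRL tumours, with overlap through CTRL-IgG replicate 1 at 3462 TPM (log2 fold change -0.48 ± 0.17, limma adjusted p = 0.340). Rpl10, a protein that joins the large subunit late in its assembly, had a log2 fold change of -0.46 ± 0.31 on its own row and of -0.20 ± 0.14 with copies added. The other large positive ones were Rpl38, which in mouse embryos is needed to translate Hox transcripts, at 0.27 ± 0.27, Rpl27 at 0.23 ± 0.19, Rps18 at 0.23 ± 0.20 and Rps15 at 0.21 ± 0.21, with limma adjusted p from 0.690 to 0.748. With copies added, the log2 fold change of Rps18 turned to -0.09 ± 0.12. The errors of these 4 are about as large as the changes.

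**Figure D4:**
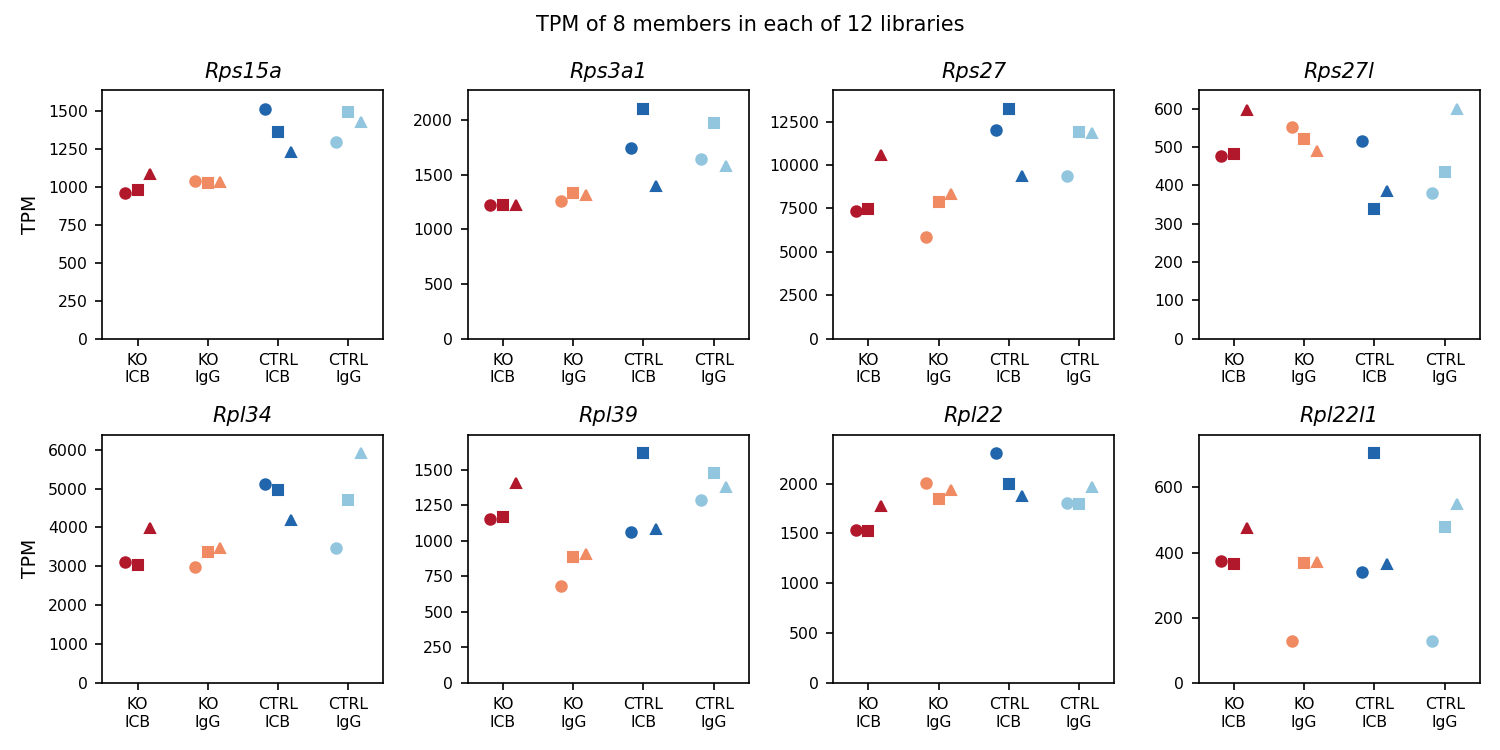
TPM of 8 members in each of the 12 libraries by group (circles, squares and triangles are replicates 1, 2 and 3), each axis from 0. Rps15a and Rps3a1 are lower in all KO libraries than in all CTRL libraries, Rps27 and Rpl34 overlap, and Rpl22l1 is lowest in KO-IgG replicate 1 and CTRL-IgG replicate 1.

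Markers of other cell types were set beside these members, and of the lists given here only the neutrophil and natural killer cell sums did not overlap between KO and CTRL libraries. Of 8 neutrophil markers, 7 were tested and 2 were lower in KO tumours at a limma adjusted p under 0.05, with a summed level of 32.8 to 116 TPM in the KO libraries and 182 to 904 TPM in the CTRL libraries. The 9 fibroblast markers summed to 345 to 865 TPM in KO and 689 to 3722 TPM in CTRL libraries. The natural killer cell list summed to 165 to 241 TPM in KO and 31.3 to 117 TPM in CTRL libraries. 0 of 9 fibroblast and 0 of 9 tested natural killer cell markers passed. Of 12 T cell markers 0 passed and 11 were positive, with sums of 224 to 296 TPM in KO and 154 to 256 TPM in CTRL libraries. Of 8 tested skeletal muscle markers 0 passed and 8 were positive, with sums of 8.73 to 104 TPM in KO and 9.13 to 41.5 TPM in CTRL libraries. These 8 were all positive in KO-ICB against CTRL-ICB (median log2 fold change 1.93). There 1 of them passed a limma adjusted p of 0.05, where 0.0072% of all genes did. In KO-IgG against CTRL-IgG only 2 of them were positive (median -0.37). Over both treatments, 9 natural killer cell, 10 T cell and 4 muscle markers were higher in KO at an unadjusted limma p under 0.05. Of all genes 6.31% were. Lower were 5 neutrophil and 2 fibroblast markers (5.23% of all genes). Over the 12 libraries as labelled, 5 natural killer cell, 2 T cell and 3 muscle markers passed as higher. There 3 neutrophil markers and 1 fibroblast marker passed as lower, and 3.23% of all genes passed in either direction. No marker of these lists was at 0 in all libraries of a group, and the part of these cells in the values of Rps15a, Rps3a1 and Rps27 was not tested.

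With copies added to their member, 0 members passed in KO against CTRL, where 0.109% of all genes did. The members that did not overlap were then partly others. Entirely below CTRL lay 4 members (1.53% of all genes), Rps15a, Rps3a1 and Rpl5 among them, and entirely above 1 (2.04%), Rpl29. Rps3a2, itself a member, was not added to Rps3a1. The 1 member above is a smaller part of all members than 2.04%. Rpl5, which with Rpl11 binds Mdm2 when ribosome assembly fails, overlapped on its own row at 64.6 ± 6.51 TPM in KO and 61.7 ± 5.02 TPM in CTRL tumours. With its copies it had 2012, 1993 and 2142 TPM in KO-ICB, 1775, 1903 and 1926 TPM in KO-IgG, 2417, 2764 and 2385 TPM in CTRL-ICB and 2581, 2249.6 and 2438 TPM in CTRL-IgG. All KO libraries then lay below all CTRL libraries, the highest KO library at 2142 TPM under the lowest CTRL library (log2 fold change -0.34 ± 0.12, limma adjusted p = 0.317), while that of the own row was 0.06 ± 0.12. Rpl29 with its copies lay above, at 1497 ± 60.8 TPM in KO and 1301 ± 99.8 TPM in CTRL tumours (log2 fold change 0.20 ± 0.12, limma adjusted p = 0.551). Rpl11, with few reads on copies, had 1965 ± 237 TPM in KO and 1953 ± 386 TPM in CTRL tumours.

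Other members chosen for their roles overlapped between KO and CTRL. Rps6, the target of S6 kinases downstream of mTOR, averaged 2224 ± 135 TPM in KO and 2566 ± 264 TPM in CTRL tumours (log2 fold change -0.20 ± 0.12, limma adjusted p = 0.564). The stalk proteins Rplp1 and Rplp2 had log2 fold changes of 0.08 ± 0.20 and -0.11 ± 0.18, and Rplp0 one of -0.13 ± 0.16. Rpsa, also known as a laminin receptor, had 0.14 ± 0.17 and Rps27a, made as a fusion with ubiquitin, 0.07 ± 0.16. Rps4x had -0.29 ± 0.15 and its paralog Rps4l, the lowest member, -0.11 ± 0.34.

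KO and CTRL tumours were also compared within each treatment. In KO-IgG against CTRL-IgG 0 members passed, where 0% of all genes did, with 6 members lower at an unadjusted p under 0.05 (2.28% of all genes) and 0 higher (2.87%). The median log2 fold change was -0.13, against -0.03 for all genes, and 62 of 81 members were negative. This direction rests on single libraries, since the median was 0.03 without KO-IgG replicate 1 and -0.01 without CTRL-IgG replicate 3. Entirely below CTRL-IgG lay 14 members (6.74% of all genes) and entirely above 0 (7.5%). Rpl39, a small protein that lines the exit tunnel, had 684, 883 and 904 TPM in KO-IgG, against 1283, 1476 and 1375 TPM in CTRL-IgG. Its KO-IgG libraries were all below, with the most negative log2 fold change of -0.81 ± 0.23 (SE, limma adjusted p = 0.7096), and Rps16 followed at -0.69 ± 0.23. Rpsa at 0.26 ± 0.24 and Rps4l at 0.22 ± 0.48 were the most positive. KO-IgG is 2 samples, and 1 of them is the library nearly without Epcam.

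In KO-ICB against CTRL-ICB 0 members passed, where 0.0072% of all genes did, with 2 members lower at an unadjusted p under 0.05 (3.45% of all genes) and 0 higher (4.53%). The median log2 fold change was close to 0, 40 members were positive and 41 negative, and the large and small subunit medians were 0.09 and -0.07. Rpl35a at 0.54 ± 0.37 and Rpl37 at 0.48 ± 0.24 were the most positive, and Rpl10 at -0.54 ± 0.44 and Rps3a1 at -0.50 ± 0.21 the most negative. Rpl35a and Rpl10 have under 50% of their TPM on their own row, and with copies added they had 0.35 ± 0.24 and 0.05 ± 0.20, so that the direction of Rpl10 turned. The 2 KO-ICB samples lay entirely above CTRL-ICB for 16 members and entirely below for 11, where each side held 17% of all genes, so these counts are near or below the background. With array weights, which give less weight to libraries far from their group, 4 members passed as lower (Rps15a, Rps3a1, Rps6 and Rps3, the last named after its values were seen), where 9.1% of all genes passed.

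Checkpoint antibodies were set against isotype antibodies over both genotypes. No member passed, where 0% of all genes did, and the smallest adjusted p was 0.994 (limma). The median log2 fold change was 0.15, against -0.02 for all genes, and 61 members were positive and 20 negative, with 37 of 48 positive in the large and 24 of 33 in the small subunit. At an unadjusted p under 0.05, 0 members were higher (1.33% of all genes) and 1 was lower (1.84%), and no member had all ICB samples above or all below the IgG samples (0.0792% and 0.266% of all genes). These values rest on 1 library: without KO-IgG replicate 1 the members' median was 0.03, below the 0.04 of all genes.

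The largest positive fold change was that of Rpl22l1, the paralog that Rpl22 represses in mouse cells. It had 373, 364 and 474 TPM in KO-ICB and 128, 367 and 372 TPM in KO-IgG. It had 339, 705 and 365 TPM in CTRL-ICB and 127, 478 and 550.3 TPM in CTRL-IgG. The 2 low libraries, both named replicate 1 and both under IgG, are also the 2 lowest in the members' share, and the other libraries of both treatments overlapped. Its log2 fold change was 0.70 ± 0.46 (SE, limma adjusted p = 0.994), and 0.32 without KO-IgG replicate 1. Rpl22 itself was at 1525 to 2306 TPM in all libraries, with a log2 fold change of -0.05 ± 0.12.

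Next came Rpl26 at 0.37 ± 0.21, Rpl10 at 0.33 ± 0.31, Rpl10a at 0.33 ± 0.18 and Rps12 at 0.33 ± 0.32. The most negative were Rps7 at -0.44 ± 0.17, Rpl30 at -0.26 ± 0.18, Rplp0 at -0.23 ± 0.16, Rpl5 at -0.20 ± 0.12 and Rps18 at -0.20 ± 0.20, all with a limma adjusted p of 0.994. With copies added, the fold changes of Rpl5 and Rps18 turned to 0.11 ± 0.12 and 0.13 ± 0.12. These 5 all hold under 50% of their TPM on their own row, and 3 of the 4 before them do. Rps7, the member with an unadjusted p under 0.05, had 80.1, 89.4 and 80.05 TPM in KO-ICB and 99.9, 90.8 and 101 TPM in KO-IgG. It had 64.7, 61.0 and 92.6 TPM in CTRL-ICB and 91.1, 137 and 110.0 TPM in CTRL-IgG. Most ICB libraries were below the IgG libraries, with overlap through CTRL-ICB replicate 3. With its copies Rps7 averaged 2789 ± 296 TPM under ICB and 2682 ± 240.3 TPM under IgG, a log2 fold change of 0.08 ± 0.13.

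**Figure D5:**
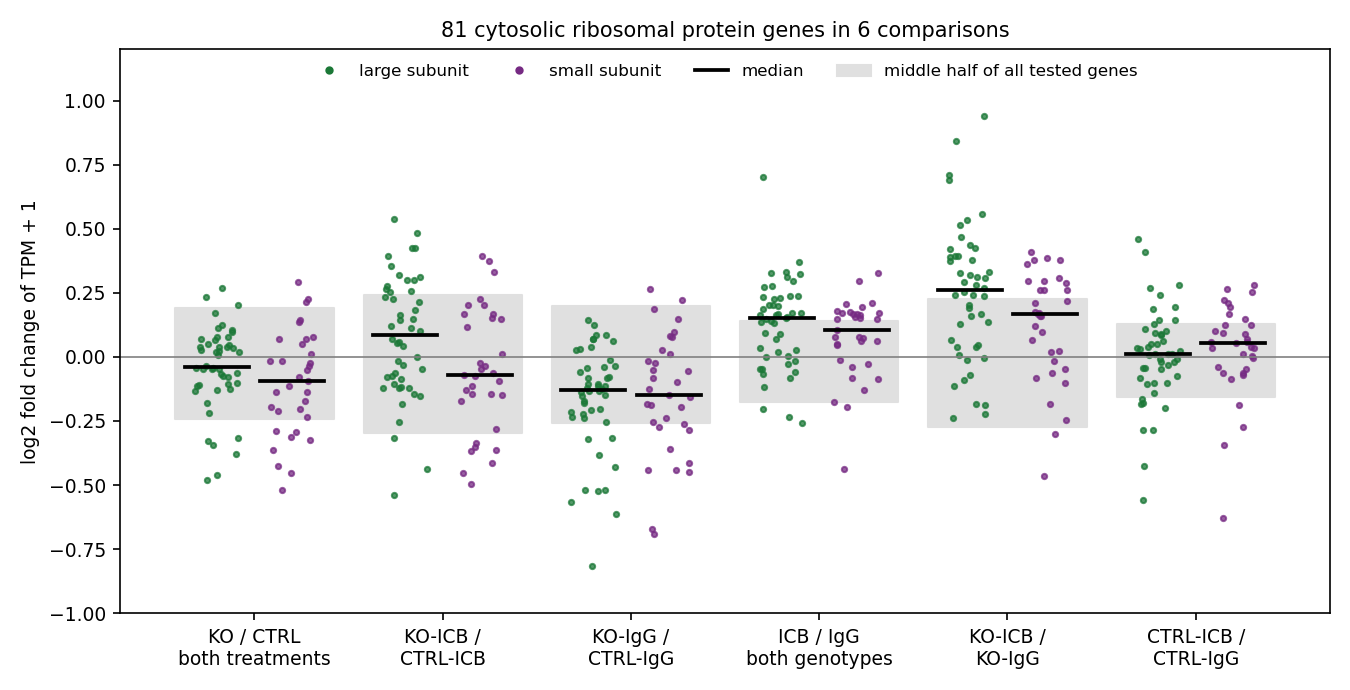
Log2 fold change of TPM + 1 for each of the 81 members in 6 comparisons, by subunit, with medians (black lines) and the interquartile range of all tested genes (grey). Most members are below 0 in KO-IgG against CTRL-IgG and above 0 for ICB against IgG and KO-ICB against KO-IgG, where the medians become 0.03, 0.03 and 0.01 without KO-IgG replicate 1.

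Checkpoint and isotype antibodies were also compared within each genotype. In KO-ICB against KO-IgG 0 members passed (0% of all genes), with 3 higher at an unadjusted p under 0.05 (1.62% of all genes) and 0 lower (1.57%), and the median log2 fold change was 0.22 with 63 of 81 members positive. Without KO-IgG replicate 1 that median was 0.01, against 0.10 for all genes. Entirely above KO-IgG lay 11 members (17.5% of all genes) and entirely below 9 (12.8%). Rpl22l1 at 0.94 ± 0.72 and Rpl26 at 0.84 ± 0.33 were the most positive, and Rps4l at -0.47 ± 0.53 and Rpsa at -0.30 ± 0.26 the most negative. In CTRL-ICB against CTRL-IgG 0 members passed (0% of all genes), with 0 higher (0.504%) and 2 lower (0.763%) at an unadjusted p under 0.05, and the median was 0.03 with 48 of 81 positive. Without CTRL-IgG replicate 3 and CTRL-ICB replicate 3, the libraries with skin transcripts, that median was 0.21, and without CTRL-IgG replicate 3 alone it was 0.16. Without CTRL-IgG replicate 1 it was -0.10, against 0.06 for all genes. It was -0.01 without CTRL-ICB replicate 1 and -0.01 without CTRL-ICB replicate 2, so its sign also turns with single libraries. Entirely above CTRL-IgG lay 2 members (1.49% of all genes) and entirely below 3 (3.51%). There Rpl22l1 at 0.46 ± 0.59 and Rpl10 at 0.41 ± 0.39 were the most positive, and Rps7 at -0.63 ± 0.21 and Rpl30 at -0.56 ± 0.23 the most negative. With copies added Rpl10 turned to -0.10 ± 0.18, and Rps7 and Rpl30 had -0.05 ± 0.16 and -0.32 ± 0.22. The difference between the genotypes was itself tested as the interaction. It gave 0 members past an adjusted p of 0.05 (0% of all genes), with 2 higher (0.886%) and 0 lower (0.526%) at an unadjusted p under 0.05. The median of the members' interactions was 0.20, but -0.03 without the libraries with skin transcripts and close to 0 without KO-IgG replicate 1. The largest interactions were 0.95 ± 0.43 for Rpl26 and 0.87 ± 0.33 for Rpl39, and -0.68 ± 0.68 for Rps4l and -0.38 ± 0.25 for Rpl22 (limma adjusted p = 0.999 for each). With copies added the interaction of Rpl26 was 0.46 ± 0.35, and its log2 fold change in KO-ICB against KO-IgG 0.39 ± 0.27. KO-IgG enters both the comparison within KO tumours and the interaction, so both contain the library nearly without Epcam.

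Members were also set apart by the 5′ TOP letters. In KO against CTRL the 28 with the letters had a median log2 fold change of -0.06 and the 31 without them -0.04. In ICB against IgG the medians were 0.15 with and 0.14 without the letters, and in the interaction 0.26 and 0.12, with no test. The members below the median coding length had medians of -0.02 in KO against CTRL and 0.17 in ICB against IgG, and the longer ones -0.05 and 0.12.

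Genes that work with the ribosomal proteins did not pass in KO against CTRL tumours either, in the fit over 10 samples. Among ribosomal protein genes whose names fall outside the rule, the log2 fold change was 0.31 for Rpl36al, 0.09 for Fau and -0.16 for Rack1, and none of these passed (limma adjusted p from 0.628 to 0.868). Of 20 tested genes other than ribosomal proteins that are known for TOP transcripts, most of them elongation and initiation factors, 0 passed, 6 were positive and the median log2 fold change was -0.09. Among them Eef1a1, which brings aminoacyl-tRNA to the ribosome, had 7200.2 to 8003 TPM in KO libraries and 8574 to 11409.9 TPM in CTRL libraries. All KO libraries were below all CTRL libraries (log2 fold change -0.34, limma adjusted p = 0.357). The elongation factor Eef2 had -0.39, and Nap1l1, a histone chaperone, -0.32.

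Of 22 other initiation factors 0 passed and 5 were positive, with Eif3c at -0.38, Eif4e, the cap-binding protein, at -0.41 and Eif3g at 0.32. Of 43 genes of ribosome biogenesis and ribosomal RNA synthesis 0 passed and 29 were positive, with a median of 0.08, Nop56, a box C/D snoRNP protein, at 0.39, Rrs1 at 0.33 and Rrp9 at 0.49. Of 18 genes of ribosomal protein transcription and TOP control 0 passed and 6 were positive. Over the 12 libraries as labelled, 1 of the 18 passed as higher, where 3.23% of all genes passed in either direction. Myc, which drives ribosome biogenesis, was at 112 TPM in KO and 79.9 TPM in CTRL tumours (log2 fold change 0.52, limma adjusted p = 0.271), Max was at 0.30 and Mtor at -0.58. Of 11 importins and chaperones of ribosomal proteins 0 passed and 4 were positive, with Nap1l4 at -0.29, Ipo7 at -0.48 and Nacad, listed at 0.428 TPM in KO and 1.30 TPM in CTRL tumours, at -0.64.

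Ribosomal proteins of mitochondria were looked at beside the cytosolic ones. Of 78 of them 0 passed, 61 were positive in KO tumours and the median log2 fold change was 0.17, with Mrpl13 at 0.42, Mrpl4 at 0.35 and Mrps31 at 0.39. All 13 mitochondrially encoded transcripts were positive, with a median of 0.67, and 0 passed. Their share of total TPM was 3.55 to 7.44% in KO samples and 2.59 to 4.74% in CTRL samples, which overlapped. TPM is a share of the library, so this moves the TPM of all other genes slightly, and without these transcripts the cytosolic members' median in KO against CTRL was -0.02.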

How the data were processed

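RNA of 12 tumours was sequenced after poly-A selection, per the labels. The authors deposited 1 table of TPM values by gene symbol. Kallisto and GRCm38 are named in the submitters' processing notes, while its version and the transcript set are not stated in those sources. TPM keeps no read depth, so depth and counting error are unknown, and any step that turned transcripts into genes is not stated. Members and gene lists were chosen with earlier results of these data known. Named members are the 5 most positive and 5 most negative in each averaged comparison, 2 of each in the others, the 3 highest and 3 lowest of each subunit, paralogs and members of known roles, and up to 3 genes of smallest p per list.

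Values were analysed as log2(TPM + 1), which understates changes of low genes, with limma 3.58.1 in R 4.3.3. The 4 group means, a mean-variance trend, robust shrinkage and Benjamini-Hochberg adjustment within each comparison were used for the 13886 genes that reached 1 TPM in 3 or more libraries. Pairs of libraries with a robust SD under 0.1 were averaged. Some single genes are not reported here. Whether libraries come from separate animals beyond the label of different tumours is not stated, so p-values measure the spread between these samples. Copies were found with blastn 2.17.0 against GENCODE M21. Alternatives covered normalization, filters, the pseudocount, weights, single libraries and copies. No pairing by replicate number was used in the main fit. Of 18 same-numbered pairs 5 had a correlation over 0.1 (median 0.031, from -0.364 to 0.270). These correlations cannot settle whether replicates were paired, since groups are small and hold near-identical libraries.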

Additional observations from a re-analysis of the deposited data

Results flagged for a closer look

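Among the 6 CTRL samples, CTRL-IgG replicate 3 stood apart in Rpl35a, with 589 TPM, while the others had 224 to 328 TPM, so the gap to the nearest sample was 0.717 of the whole range. Rpl35a has 18.7% of its TPM on its own row. Among the 4 KO samples, KO-IgG replicate 1 stood apart in Rpl7, with 1438 TPM, while the others had 2130.0 to 2252 TPM, a gap of 0.85 of the range. Over 40 members and summaries in 80 groups, chance alone gives such gaps in about 1 group of 20.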

How the results depend on the processing

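Of 263 values under alternatives for 14 results, 261 left the calls as they were or moved an untested value by less than the spread between samples. Over all 12 libraries as labelled, 1 member passed in KO against CTRL (Rps15a), where 3.23% of all genes did. With array weights 4 members passed in KO-ICB against CTRL-ICB, where 9.1% of all genes did. Neither count is above the share of all genes. By construction, the near-identical libraries count separately in the fit over 12 libraries. The cause of the calls under array weights was not tested. Leaving out single samples gave 0 to 0 members called in every comparison. With a replicate block over the 12 libraries 0 members passed in each comparison. Over the alternatives the log2 fold change of Rps15a ranged from -0.47 to -0.37 (adjusted p 0.0270 to 0.668) and that of Rps3a1 from -0.60 to -0.38 (0.0564 to 0.701). The median of the members in KO against CTRL ranged from -0.15 without KO-IgG replicates 2 and 3 to 0.04 without KO-IgG replicate 1, and was also positive with median centring (0.01) and without CTRL-IgG replicate 3 (0.01). The difference in share, KO minus CTRL, ranged from -1.73 points without KO-IgG replicates 2 and 3 to 0.370 points without KO-IgG replicate 1. The ratio of the subunits stayed higher in KO than in CTRL tumours, by 0.09 to 0.17 (log2), and how much of this rests on Rps27 is not given. Without a read depth, counting error could not be given.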
